A study of Mus musculus with 123 samples.

Results

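The livers compared here came from mice in Long light, some on a high fat diet (HFD) and the others on a low fat diet (LFD), and diet was the difference of interest. They were all 41 libraries whose title names Long light, 20 from HFD mice and 21 from LFD mice, beside 40 libraries from Equal light and 42 from Short light in the series. Livers were collected at 6 zeitgeber times (ZT, hours on the light schedule), at ZT0, 4, 8, 12, 16 and 20, and each diet and time held 3 or 4 libraries. In 7 of the 12 groups there were 3 libraries and in 5 there were 4. Both diets shared the Long light photoperiod. Neither the hours of light nor the strain, genotype, sex or age of the mice are in the labels, nor the composition and duration of the diets. They also do not say whether libraries of a group came from separate animals, so that p-values measure the spread between these libraries.

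The liver takes up, stores, makes and burns fatty acids, and a diet rich in fat brings in fatty acids that activate nuclear receptors such as PPAR alpha, which raise the enzymes of mitochondrial and peroxisomal beta-oxidation. Enzymes that build fatty acids are switched on by insulin and dietary sugar through SREBP-1c and ChREBP. Much of this metabolism also runs on a daily cycle, set by the molecular clock of the hepatocyte and by the time of feeding, and the length of the day is one of the cues to that clock.

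Values are log2 CPM (counts per unit of depth, with a small constant added by the depositors), and differences are HFD minus LFD on that scale, averaged over the 6 times with equal weight. Depth ranged from 18.1 to 37.1 M (mega) reads in HFD libraries and from 15.9 to 33.8 M reads in LFD libraries. The mean over 8 hepatocyte markers was 12.29 to 12.76 log2 CPM in HFD libraries and 12.26 to 12.86 in LFD libraries, so that all 41 carried the labelled tissue. Some libraries also held RNA of tissues that lie near the liver: the mean of the pancreas acinar or the skeletal muscle markers was above 4 log2 CPM in 3 HFD and 6 LFD libraries. Results are therefore also given without these 9 libraries (and the like libraries of the other photoperiods, 16 in all), which left LFD at ZT20 with a single library. A pair of LFD libraries stood apart in their clock genes. Npas2, a partner of BMAL1, and Cry1, a clock repressor, were at -0.66 and 2.29 log2 CPM in LFD replicate 1 of ZT8, against 2.80 to 3.91 and 3.63 to 4.39 in the other 3 libraries of that group. They were at 3.29 and 5.69 in LFD replicate 2 of ZT16, against -2.70 to -1.70 and 3.66 to 4.20 in the others. Both libraries thus went against the other libraries of their labelled time, and results by time are also given without both libraries, an alternative chosen after seeing the data. In whole liver RNA, fewer cells of a type and less RNA per cell cannot be told apart.

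**Figure D1:**
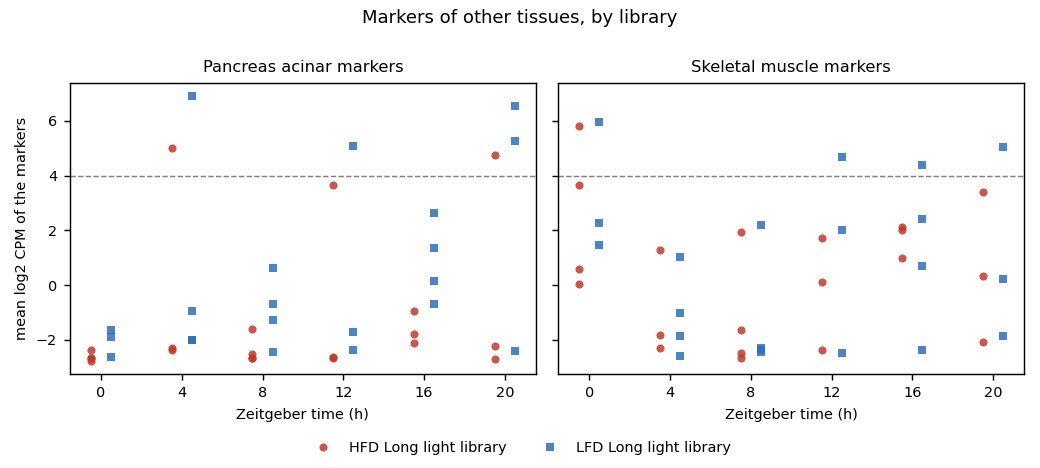
Mean log2 CPM of the pancreas acinar markers (left) and the skeletal muscle markers (right) in each Long light library by zeitgeber time in hours, with HFD as circles and LFD as squares. Libraries above the dashed line at 4, of which 3 were HFD and 6 LFD, were left out in the alternative analysis.

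The diet changed a modest share of the liver transcriptome in Long light. Of 14184 genes tested with limma over the libraries of all 3 photoperiods, 701 passed an adjusted p of 0.05 (4.94%). Of these, 465 were higher in HFD (3.28%) and 236 were lower in HFD (1.66%), and 149 differed by more than 1.5-fold, 46 of them lower in HFD. At an unadjusted p under 0.05 the share was 17.9% (2543 genes). The median size of the 701 differences was 0.30 on the log2 scale, beside a median standard error (SE) over all genes of 0.078. Without the libraries rich in pancreas or muscle RNA, 130 genes passed, 127 of them among the 701. All 701 had the same sign there, which is favoured because most of these libraries also served to choose the 701 genes. The median SE over all genes was 0.096 in that fit and the median size of the 701 differences 0.27. Of the 64 named genes that passed, 44 did not pass there. Beside those stated with their gene or list, these were Rbm3, Orm3, Ifit3, Lgr5, Ephx1, Uqcrc2, Npm1, Car3, Parvb, Ces2c and Cfi, with adjusted p-values of 0.0603 (Cfi) to 0.46 (Npm1). Which part of the loss came from the other tissues and which from having fewer libraries was not tested. Without the pair of LFD libraries that stood apart, 660 genes passed, 567 of them among the 701. All 701 kept their sign there, which the shared libraries again favour. The named genes that lost their call there were Mup1, Ugt1a9, Creb3l3, Rbm3, Orm3, Ifit3, Lgr5, Sardh, Car3, Alas2 and Parvb, with adjusted p-values of 0.0601 (Parvb) to 0.105 (Creb3l3).

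Lepr, which encodes the leptin receptor (chromosome 4, 101717404 to 101815352, plus strand, GRCm38), had the smallest p of all genes. Its lowest, median and highest values were 1.45, 1.97 and 2.97 log2 CPM in HFD livers, against 2.02, 3.98 and 5.59 log2 CPM in LFD livers. HFD livers averaged 2.08 ± 0.44 and LFD livers 4.09 ± 0.98 log2 CPM (SD over 20 and 21 libraries, which includes the change over the day). Lepr was 4.05-fold lower in HFD (log2 difference -2.02, SE 0.24, adjusted p = 1.47e-08). At each of the 6 times all HFD libraries lay below all LFD libraries. It was the only gene with such a separation at all 6 times, 1 of 14184 (0.00705%). The share of all genes separated at fewer times was not counted, so such counts given for other genes are descriptions only. The gap was -1.07 at ZT0 and -2.94 at ZT12, and HFD means stayed between 1.77 and 2.47 over the 6 times, while LFD means were 3.35 at ZT0 and 4.96 at ZT12. Its adjusted p was 3.61e-05 without the libraries rich in pancreas or muscle RNA.

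Fabp5, a fatty acid binding protein best known from skin and also made in liver, showed the largest decrease among the genes named. It reached 1.98, 3.90 and 8.41 log2 CPM (lowest, median, highest) in HFD livers and 4.84, 6.73 and 8.80 in LFD livers, a log2 difference of -2.52 (SE 0.45, 5.73-fold lower, adjusted p = 9.44e-05). All HFD libraries lay below all LFD libraries at 4 of the 6 times, and at ZT8 and ZT16 the highest HFD libraries, at 8.41 and 7.27, lay within the LFD range. Adgrf1, an adhesion G protein-coupled receptor, was 2.86-fold lower in HFD (medians 2.59 in HFD and 4.43 in LFD, adjusted p = 0.00462), but its adjusted p was 0.232 without the libraries rich in other tissues. Srgap3, a GTPase-activating protein, was 2.42-fold lower in HFD (medians 1.49 in HFD and 2.87 in LFD, adjusted p = 2.29e-05), with its widest gap, -2.32, at ZT8.

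The other 8 leading decreases were between 1.51-fold and 1.98-fold. Acpp, an acid phosphatase, averaged 3.46 ± 0.82 log2 CPM in HFD and 4.45 ± 0.94 in LFD (adjusted p = 0.0146), and Prss8, the membrane serine protease prostasin, 2.14 ± 0.81 in HFD and 2.98 ± 0.79 in LFD (adjusted p = 0.0146). Gabbr2, a subunit of the GABA-B receptor, had medians of 5.08 in HFD and 6.02 in LFD and fell by 0.66 (adjusted p = 0.000442). Cd9, a tetraspanin of the cell surface, had medians of 3.37 in HFD and 3.98 in LFD (log2 difference -0.63, adjusted p = 0.00152). Inhba, the beta A subunit of activins, was lower by -0.67 (adjusted p = 0.0192) and Smad9, a transcription factor of BMP signalling, by -0.81 (adjusted p = 0.0165). Without HFD replicate 1 of ZT16 the adjusted p of Inhba was 0.056. Adam11, a catalytically inactive member of the ADAM family, had the highest adjusted p of the 12, 0.0367, and it was above 0.05 in 16 of 41 fits that each left out 1 library (highest 0.0777). The adjusted p of Adam11 was 0.00542 without the pair of LFD libraries that stood apart, an alternative chosen after seeing the data. Ugt1a9, a UDP-glucuronosyltransferase, was lower by -0.60 (adjusted p = 0.0273), and 61.7% of the 52-base windows of its transcripts occur in other genes, so that reads could have been split among the Ugt1a isoforms. Its adjusted p was 0.0629 without LFD replicate 1 of ZT12, 0.0577 without HFD replicate 2 of ZT20 and 0.0565 without HFD replicate 1 of ZT16.

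**Figure D2:**
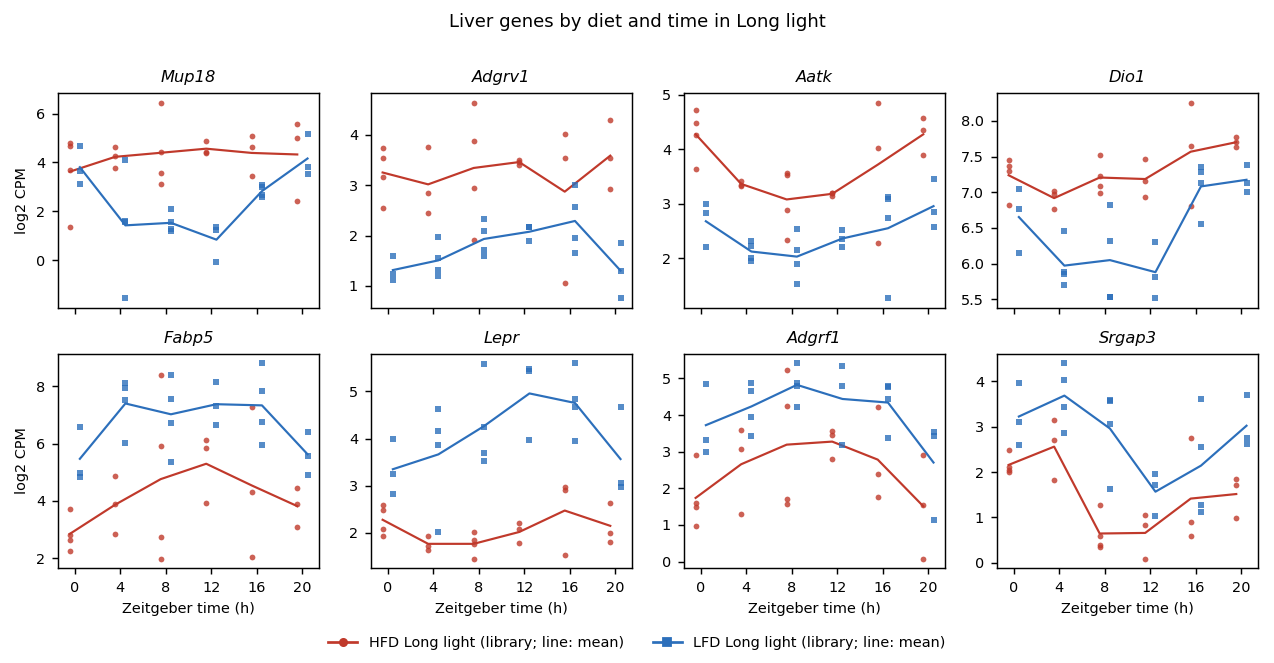
Log2 CPM of 8 leading genes in every Long light library against zeitgeber time in hours, with HFD as circles and LFD as squares and lines through the group means. Mup18, Adgrv1, Aatk and Dio1 were higher in HFD and Fabp5, Lepr, Adgrf1 and Srgap3 lower, and for Lepr the circles lie below the squares at all 6 times.

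The leading increases included the major urinary proteins (MUPs), small pheromone carriers that the liver secretes and that are known to depend on pulsatile growth hormone. Mup18 had 1.35, 4.44 and 6.44 log2 CPM (lowest, median, highest) in HFD livers and -1.56, 2.58 and 5.15 in LFD livers, a difference of 1.83 (SE 0.36, 3.54-fold, adjusted p = 0.000478). Mup17 averaged 8.10 ± 1.28 in HFD and 6.45 ± 1.75 in LFD (adjusted p = 0.00695), and Mup1 5.39 ± 0.98 in HFD and 4.19 ± 1.14 in LFD (adjusted p = 0.0227). By time, Mup18 means stayed between 3.62 and 4.57 in HFD. LFD means were 3.81 at ZT0, 1.42 at ZT4, 1.53 at ZT8, 0.84 at ZT12, 2.83 at ZT16 and 4.16 at ZT20. The difference was thus -0.19 at ZT0, 3.73 at ZT12 and 0.17 at ZT20, though the test of diet by time gave an unadjusted p of 0.0117 that did not pass adjustment (adjusted p = 1). Of the windows of these transcripts, 89.3% for Mup18, 77.4% for Mup17 and 61% for Mup1 occur in other genes, so that which MUP gene changed is uncertain. Other MUP entries were also called higher, Mup9 by 1.52 (adjusted p = 0.000579) and Mup8 by 0.893 (adjusted p = 0.0085). So were the pseudogene entries Mup-ps14 (1.88), Mup-ps16 (1.07 and 1.17) and Mup-ps7 (0.851). Mup3, Mup7 and Mup20 had differences of -0.04, 0.22 and -0.20 (adjusted p = 0.904, 0.797 and 0.443). The adjusted p of Mup17 was 0.0993 without the libraries rich in other tissues, and that of Mup1 was 0.051 without LFD replicate 1 of ZT0 and 0.0533 without LFD replicate 1 of ZT12.

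Adgrv1, a very large adhesion receptor known for its role in hearing, had 1.06, 3.49 and 4.63 log2 CPM (lowest, median, highest) in HFD livers and a median of 1.72 in LFD livers, and averaged 3.25 ± 0.82 in HFD and 1.74 ± 0.53 in LFD (SD), a difference of 1.52 (SE 0.21, adjusted p = 7.27e-07). All HFD libraries lay above all LFD libraries at 4 of the 6 times. Tmem28 had a narrow HFD range, from 2.15 to 3.18, against 0.39 to 2.33 in LFD, and was 2.36-fold higher (adjusted p = 4.36e-06). Aatk, a kinase first described in dying myeloid cells, had medians of 3.55 in HFD and 2.35 in LFD (2.29-fold higher, adjusted p = 1.37e-05).

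Dio1, the deiodinase that turns thyroxine into active triiodothyronine, had 6.77, 7.26 and 8.25 log2 CPM (lowest, median, highest) in HFD livers and 5.52, 6.46 and 7.39 in LFD livers, 1.78-fold higher in HFD (adjusted p = 3.23e-05). Its gap was 1.31 at ZT12 and 0.49 at ZT16. Gdf15, a hormone released under cellular stress, had medians of 4.62 in HFD and 3.44 in LFD (adjusted p = 0.0147). Gpc1, a glypican of the cell surface, averaged 4.49 ± 0.56 in HFD and 3.52 ± 0.50 in LFD (adjusted p = 0.000579), and Clstn3, a calsyntenin, 4.42 ± 0.78 in HFD and 3.38 ± 0.70 in LFD (adjusted p = 0.00289). Hectd2os, an antisense RNA, was 1.93-fold higher (adjusted p = 0.0115). The libraries were stranded per the labels, but no source used here says whether strand was used in the counting. Without the libraries rich in other tissues, 9 of the 24 leading genes lost their call: Mup17, Gdf15, Clstn3, Hectd2os, Nr1i3, Adgrf1, Smad9, Adam11 and Ugt1a9 had adjusted p-values of 0.0993, 0.245, 0.168, 0.129, 0.0598, 0.232, 0.195, 0.0754 and 0.177.

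**Figure D3:**
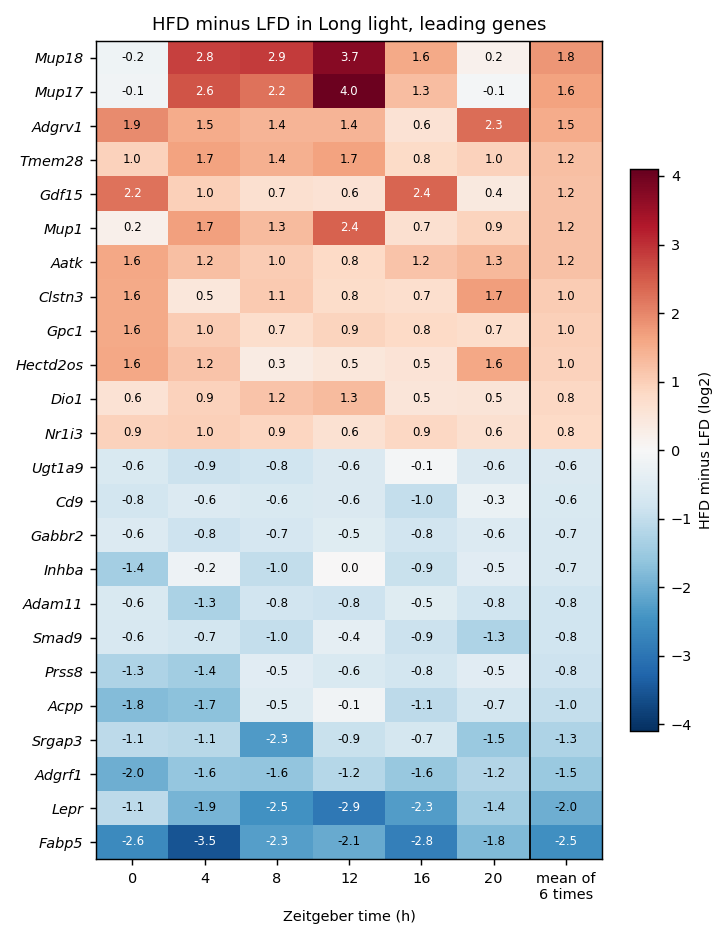
HFD minus LFD (log2) of the 12 largest increases and the 12 largest decreases, in rows, at each zeitgeber time in hours and as the mean of the 6 times in the last column, with red for higher and blue for lower in HFD. Mup18 and Mup17 are close to 0 at ZT0 and ZT20 and largest at ZT12, while Fabp5 and Adgrf1 are lower at all 6 times.

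Nr1i3, which encodes the drug-sensing nuclear receptor CAR, and the cytochrome P450 genes Cyp2a5, Cyp2b9 and Cyp2b13 were higher in HFD. Whether CAR had a part in the P450 differences was not tested. Of 18 measured genes of drug metabolism 4 passed the test, all higher, beside 3.28% called higher over all genes tested. The median difference was 0.19 over the list and -0.002 over all genes tested. Nr1i3 averaged 6.53 ± 0.69 log2 CPM in HFD and 5.71 ± 0.79 in LFD (log2 difference 0.82, adjusted p = 0.00262). Cyp2a5 averaged 8.80 ± 0.95 in HFD and 8.12 ± 1.22 in LFD (adjusted p = 0.016), with 35.4% of its windows shared with other genes. Cyp2b9 had -2.03, 2.98 and 7.02 log2 CPM (lowest, median, highest) in HFD livers and -2.98, -0.27 and 3.08 in LFD livers, a difference of 3.22 with an SE of 0.80 (adjusted p = 0.00727). The HFD libraries were spread widely and overlapped the LFD libraries at 5 of the 6 times, and with limma-voom on the recovered reads the adjusted p was 0.194. Cyp2b13 had 0 reads in 3 of 20 HFD libraries and in 16 of 21 LFD libraries (adjusted p = 0.00334), and its fitted difference of 1.89 depends on the constant added to each value. In the fit without the libraries rich in other tissues Cyp2b13 was the member that passed (adjusted p = 0.045), and the adjusted p was 0.185 for Cyp2b9 and 0.253 for Cyp2a5. Among 15 genes known to differ between the sexes in mouse liver 4 rose, Mup1, Mup17, Cyp2b9 and Cyp2b13 (median 0.14), beside 3.28% of all genes. The MUPs are known as male-biased and these P450 genes as female-biased.

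The promoters of Cyp2b9 and Cyp2b13 are shown because these neighbouring genes on chromosome 7 were both higher in HFD and are nearly identical there. Each stretch runs from 250 bases before to 50 bases after the start of the gene (RefSeq, GRCm38.p6, plus strand), at chr7:26173159-26173458 for Cyp2b9 and chr7:26061245-26061544 for Cyp2b13. They are the same at 298 of 300 positions (99.33%), and capitals mark the 2 positions that differ.
Cyp2b9: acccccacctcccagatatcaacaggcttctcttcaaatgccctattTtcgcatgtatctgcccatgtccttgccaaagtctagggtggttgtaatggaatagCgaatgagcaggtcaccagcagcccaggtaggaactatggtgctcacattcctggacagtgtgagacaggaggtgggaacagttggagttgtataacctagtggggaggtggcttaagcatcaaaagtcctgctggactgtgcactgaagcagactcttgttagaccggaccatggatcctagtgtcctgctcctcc
Cyp2b13: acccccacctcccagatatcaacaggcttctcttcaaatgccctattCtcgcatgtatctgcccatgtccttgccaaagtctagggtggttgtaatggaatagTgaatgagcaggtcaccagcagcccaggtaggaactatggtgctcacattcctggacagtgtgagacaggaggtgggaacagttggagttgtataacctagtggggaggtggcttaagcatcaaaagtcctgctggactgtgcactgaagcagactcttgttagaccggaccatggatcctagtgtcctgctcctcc
In their transcripts, 10.3% of the windows of Cyp2b9 and 26.4% of those of Cyp2b13 occur in other genes. Part of their reads could thus have been assigned elsewhere. The gene sharing most windows was Cyp2b13 for Cyp2b9 and Gm45225 for Cyp2b13. Canonical promoter motifs were counted in the promoters of the named called genes. Of 64 such genes 51 had a promoter in the RefSeq table, 60 promoters in all, and on either strand 3 held the E-box CACGTG, 19 the CCAAT box, 1 the D-box TTATGTAA and 0 the DR1 element AGGTCANAGGTCA. Over all 32851 promoters of the same length the shares were 7.15%, 37.4%, 0.938% and 0.0396%, and no motif contains another.

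Among the metabolic lists, fatty acid oxidation had the most calls. Of 26 measured genes of mitochondrial and peroxisomal fatty acid oxidation and ketone body formation 13 rose and none fell. Of the 26, 25 had a positive difference (median 0.24). Over all 14184 genes tested 3.28% were called higher, and 6966 had a positive difference. Hadh, the short-chain hydroxyacyl-CoA dehydrogenase, had 7.97, 8.48 and 8.89 log2 CPM (lowest, median, highest) in HFD livers and 7.77, 8.17 and 8.70 in LFD livers (log2 difference 0.32, SE 0.07, adjusted p = 0.00107). Cpt2, which reforms acyl-CoA inside mitochondria, averaged 7.25 ± 0.24 in HFD and 6.97 ± 0.22 in LFD (adjusted p = 0.00139). Acadm, the medium-chain acyl-CoA dehydrogenase, averaged 8.19 ± 0.34 in HFD and 7.85 ± 0.27 in LFD (adjusted p = 0.00408). Each of these was 1.21-fold to 1.26-fold higher.

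The rise covered several steps of the pathway. It included Slc25a20, the carnitine carrier of the inner membrane (0.26), Acadvl, the very-long-chain dehydrogenase (0.15), Eci1 and Decr1, which handle unsaturated fatty acids (0.29 and 0.24), and Etfa and Etfdh, which pass the electrons on (0.13 and 0.19). Acaa1b, a peroxisomal thiolase, had the largest difference of the list (0.52, adjusted p = 0.0181). For ketone bodies, Bdh1, the dehydrogenase that makes hydroxybutyrate, rose by 0.26 (adjusted p = 0.0295). Cpt1a, the entry step to mitochondria, Fgf21, a fasting hormone, and Pdk4, a brake on glucose oxidation, had differences of 0.22, 0.46 and -0.13 (adjusted p = 0.326, 0.342 and 0.851). By time, the list's median difference was 0.47 at ZT0, 0.24 at ZT4, 0.09 at ZT8, 0.05 at ZT12, 0.29 at ZT16 and 0.18 at ZT20. Between 9 and 14 members passed when any 1 library was left out, and 0 passed without the libraries rich in other tissues, where the median was 0.19.

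Other targets of PPAR alpha gave fewer calls, set here beside 3.28% of all genes called higher. Of 16 genes 2 rose, Pex11a, a protein of peroxisome division (0.40, adjusted p = 0.0483), and Creb3l3, a liver transcription factor (0.23, adjusted p = 0.0483), and the adjusted p of each was above 0.05 in 27 of the 41 fits without 1 library. The classical targets Cyp4a10 and Cyp4a14 had differences of 0.71 and 1.03 with adjusted p-values of 0.43 and 0.414. Of 17 genes of lipid droplets and lipid uptake 3 rose and none fell, beside 3.28% of all genes called higher and 1.66% lower. Fitm1, an endoplasmic reticulum protein of lipid droplet formation, averaged 4.45 ± 0.59 in HFD and 3.67 ± 0.50 in LFD (adjusted p = 0.00408), Pparg, the nuclear receptor of fat storage, 2.94 ± 0.68 in HFD and 2.17 ± 0.47 in LFD (adjusted p = 0.0192), and Cd36, a fatty acid receptor of the cell surface, 5.98 ± 0.79 in HFD and 5.27 ± 0.34 in LFD (adjusted p = 0.028). Pparg had an adjusted p of 0.0509 without HFD replicate 1 of ZT20 and 0.0543 without LFD replicate 3 of ZT12, and Cd36 was above 0.05 in 7 of the 41 fits (highest 0.0927). Of either list 0 members passed without the libraries rich in other tissues, and without the pair that stood apart 5 lipid droplet genes did.

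Genes that build fatty acids and cholesterol did not pass the test. The fatty acid synthesis list had 20 genes, of which 0 passed by limma and 6 had an unadjusted p under 0.05, all lower in HFD. Of the 20, 17 had a negative difference (median -0.26). Over all 14184 genes tested, 1139 were lower at an unadjusted p under 0.05 and 7218 had a negative difference. When 1 library was left out, 0 to 2 members of the list passed, lower in HFD. Scd1, the stearoyl-CoA desaturase, averaged 13.71 ± 1.49 log2 CPM in HFD and 14.60 ± 1.06 in LFD (difference -0.89, SE 0.33, adjusted p = 0.103), and Fasn, the fatty acid synthase, 10.64 ± 1.38 in HFD and 11.18 ± 1.33 in LFD (difference -0.54, SE 0.34, adjusted p = 0.419). Pnpla3, a lipid droplet protein controlled by SREBP-1c, had the lowest difference, -1.43 with an SE of 0.52 (adjusted p = 0.0929). The SEs of this list had a median of 0.28, against 0.078 over all genes. Of 24 genes of cholesterol synthesis and uptake 0 passed and 2 had an unadjusted p under 0.05 (median -0.20). The medians were -0.42 for fatty acid synthesis and -0.34 for cholesterol without the libraries rich in other tissues, and without the pair of LFD libraries that stood apart -0.15 and -0.03.

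**Figure D4:**
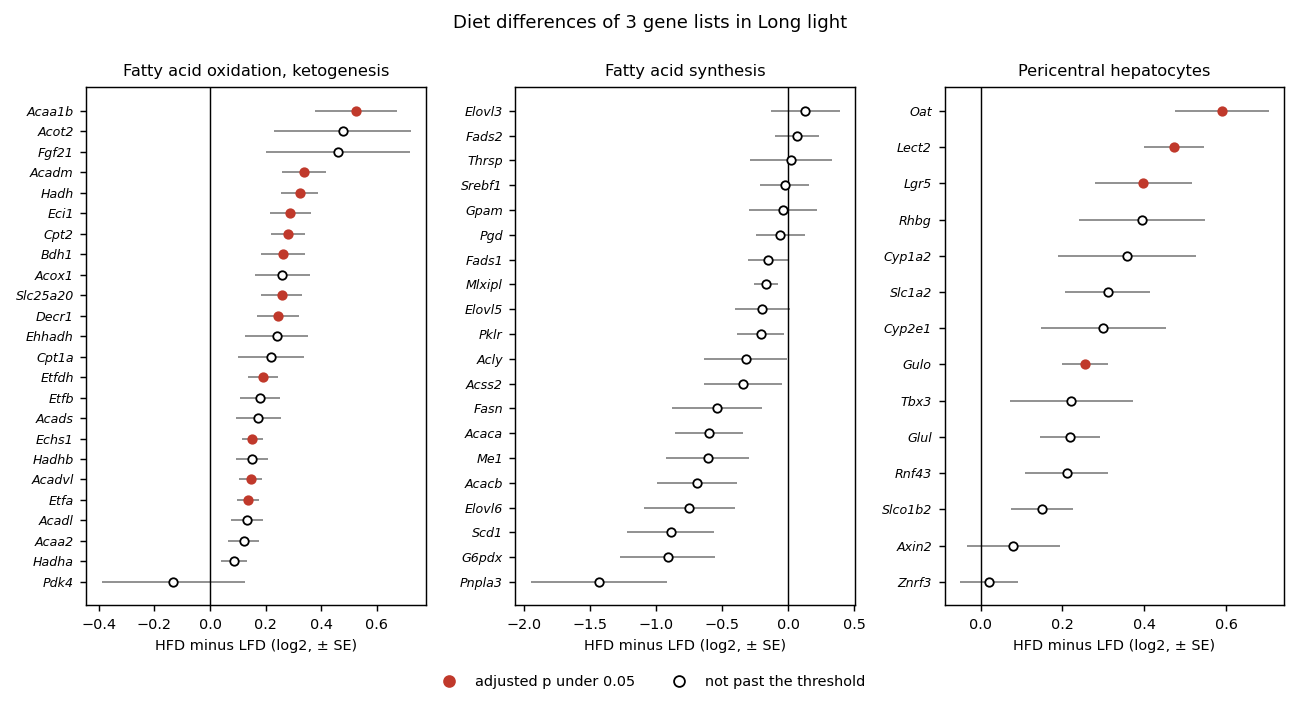
HFD minus LFD (log2, mean of the 6 times, bars ± SE) of members of 3 gene lists, with red points for an adjusted p under 0.05 and open points for the others. Of the 24 members of fatty acid oxidation shown 12 are red, all to the right of 0, while 0 of 20 are red in fatty acid synthesis and 4 of 14 in pericentral hepatocytes.

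Pericentral hepatocytes surround the central vein, under Wnt signals, and hold glutamine synthesis and much of the cytochrome P450 activity. All 14 measured genes of this zone had a positive difference (median 0.28) and 4 passed, all higher in HFD. Over all 14184 genes tested 6966 had a positive difference and 3.28% were called higher. Lect2, a secreted protein, had 6.42, 6.81 and 7.28 log2 CPM (lowest, median, highest) in HFD livers and 5.97, 6.27 and 6.83 in LFD livers, 1.39-fold higher in HFD (adjusted p = 5.95e-06), with no overlap at 4 of the 6 times. Oat, ornithine aminotransferase, averaged 9.77 ± 0.36 in HFD and 9.18 ± 0.52 in LFD (adjusted p = 0.000406), and Gulo, the last enzyme of vitamin C synthesis, 9.34 ± 0.12 in HFD and 9.08 ± 0.18 in LFD (adjusted p = 0.00188). Lgr5, a receptor for R-spondins, was higher by 0.40 (adjusted p = 0.0307, up to 0.0835 in 11 of the 41 fits without 1 library). Glul, glutamine synthetase, had a difference of 0.22 with an adjusted p of 0.0694. Without the libraries rich in other tissues Lect2 passed (adjusted p = 0.00692), while Oat and Gulo were at 0.072 and 0.0598. Of 15 periportal and urea cycle genes 1 rose, Otc, ornithine transcarbamylase (0.29, adjusted p = 0.000374). Of these 15 genes 12 also had a positive difference (median 0.08), so a positive lean was not particular to the pericentral list.

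Of 15 genes of methionine and one-carbon metabolism 4 rose and none fell, beside 3.28% of all genes called higher and 1.66% lower. Bhmt, which remethylates homocysteine with betaine, averaged 10.57 ± 0.51 in HFD and 10.15 ± 0.54 in LFD (adjusted p = 0.0203). Dmgdh and Sardh, the next enzymes of betaine breakdown, were higher by 0.20 and 0.33 (adjusted p = 0.0258 and 0.0274), and Cth, which makes cysteine, by 0.25 (adjusted p = 0.0126). The adjusted p of Dmgdh was above 0.05 without LFD replicate 3 of ZT20 (0.0686) and without HFD replicate 3 of ZT16 (0.0595), and that of Sardh in 5 of the 41 fits (highest 0.0627). Of the 4, 0 passed without the libraries rich in other tissues. Among 17 bile acid genes 2 rose: Cyp8b1, the sterol 12-alpha-hydroxylase that sets the share of cholic acid (0.53, adjusted p = 0.0059, but 0.147 without the libraries rich in other tissues), and Abcb4, the phospholipid exporter of the bile canaliculus (0.31, adjusted p = 0.00465). Cyp7a1, the rate-limiting enzyme of bile acid synthesis, had a difference of 0.44 with an SE of 0.33 (adjusted p = 0.511).

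The 3 fibrinogen chains, clotting proteins that hepatocytes secrete, were lower in HFD together. Their genes are neighbours on chromosome 3 of GRCm38, Fgg at 83007724 to 83015049, Fga at 83026076 to 83033627 and Fgb at 83040141 to 83049863. Fga had 11.35, 11.93 and 12.36 log2 CPM (lowest, median, highest) in HFD livers and 11.53, 12.11 and 12.99 in LFD livers (log2 difference -0.37, SE 0.08, adjusted p = 0.000945), Fgb averaged 11.73 ± 0.25 in HFD and 12.05 ± 0.36 in LFD (adjusted p = 0.00425) and Fgg 11.35 ± 0.29 in HFD and 11.68 ± 0.39 in LFD (adjusted p = 0.00632). Fga overlapped between the diets at 5 of the 6 times, and its difference was -0.59 at ZT8 and -0.10 at ZT20. Of the other 14 acute phase genes 1 passed, Orm3, with medians of 1.40 in HFD and 0.061 in LFD (adjusted p = 0.0325, above 0.05 in 9 of the 41 fits without 1 library), while Saa1, Saa2 and Lcn2 had SEs of 0.44 to 0.48 and adjusted p-values of 0.812 to 0.938. Of all 17 acute phase genes, 1 was called higher and 3 lower, beside 3.28% and 1.66% of all genes tested. At an unadjusted p under 0.05, 2 were higher and 6 lower, beside 1404 and 1139 of 14184. Without the libraries rich in other tissues the adjusted p was 0.0278 for Fga, 0.072 for Fgb and 0.113 for Fgg.

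Of 79 markers of cells other than hepatocytes, 5 passed (6.33%, beside 4.94% of all genes). Of 22 macrophage and Kupffer cell genes 1 rose, Trem2, a receptor of lipid-associated macrophages (0.55 ± 0.55 log2 CPM in HFD and -0.32 ± 0.65 in LFD, adjusted p = 0.00887), and 1 fell, Cd9, which other cells also make. The median of the list was 0.06, and the defining Kupffer cell genes Clec4f and Vsig4 had differences of 0.10 and 0.06 (adjusted p = 0.565 and 0.822). Summed macrophage markers ranged from 550 to 942 CPM in HFD libraries and from 454 to 1104 CPM in LFD libraries. Of 13 stellate cell and matrix genes 1 rose, Colec11, a collectin (0.21, adjusted p = 0.00546), and of 7 adipocyte markers 1 rose, Car3, a carbonic anhydrase that hepatocytes also make in abundance (0.65, adjusted p = 0.0228, and 0.0606 without HFD replicate 1 of ZT16). Of 7 blood markers 6 had a negative difference, 4 of them at an unadjusted p under 0.05 (median -0.31), and the member that passed, Alas2, the first enzyme of heme synthesis in red cells, was higher in HFD (0.23, adjusted p = 0.0306, above 0.05 in 9 of the 41 fits without 1 library). The blood median was -0.50 without the libraries rich in other tissues, where Alas2 had an adjusted p of 0.186 and Slc4a1, the anion exchanger of red cells, was the member that passed (-1.03, adjusted p = 0.0293). The adjusted p of Trem2 was 0.0631 and that of Colec11 0.0573 without the libraries rich in other tissues. None of 9 lymphocyte, 3 neutrophil, 13 endothelial and 6 cholangiocyte genes passed by limma. At an unadjusted p under 0.05, 1 lymphocyte, 2 neutrophil, 1 endothelial and 0 cholangiocyte genes differed. All 9 lymphocyte and all 7 adipocyte markers had a positive difference (medians 0.27 and 0.28), and all 3 neutrophil markers a negative one (median -0.72).

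Of 15 pancreas acinar and 16 skeletal muscle markers 0 passed, with 4 and 0 at an unadjusted p under 0.05, but their medians were -1.49 and -0.41. The summed pancreas markers ranged from 17.7 to 599 CPM in HFD libraries and from 12.3 to 2199 CPM in LFD libraries, and the summed muscle markers from 7.43 to 1345 CPM in HFD and from 7.32 to 1526 CPM in LFD. No marker of either list was at 0 in all libraries of a diet. Without the libraries rich in them the medians were -0.51 and 0.33.

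Over the lists of other processes 6 of 142 genes passed (4.23%), beside 4.94% of all genes. In the unfolded protein response 0 of 16 genes passed, with 1 at an unadjusted p under 0.05, and 13 of 16 differences were negative (median -0.14, and -0.07 without the libraries rich in other tissues). Heat shock and cold response had 1 call of 14, Rbm3, a cold-induced RNA-binding protein (-0.18, adjusted p = 0.0427, above 0.05 in 20 of the 41 fits). Of 15 interferon response genes Ifit3 rose (0.30, adjusted p = 0.0498, above 0.05 in 30 of the 41 fits) and Bst2, an antiviral membrane protein, fell by 0.21 (adjusted p = 0.00835, but 0.136 without the libraries rich in other tissues). The NRF2 and glutathione list had 1 call of 14, Ephx1, the microsomal epoxide hydrolase (0.41, adjusted p = 0.031, above 0.05 in 9 of the 41 fits). The respiratory chain had 1 of 19, Uqcrc2, a core subunit of complex III (0.12, adjusted p = 0.0348, above 0.05 in 13 of the 41 fits), and ribosome biogenesis 1 of 17, Npm1, nucleophosmin (-0.16, adjusted p = 0.0471, above 0.05 in 28 of the 41 fits). Gluconeogenesis and insulin response (17 genes), glycolysis and fructose entry (16) and the cell cycle (15) had 0 calls by limma, with 3, 0 and 0 genes at an unadjusted p under 0.05.

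The diet difference was next examined by time of day. For 1965 genes (13.9%) the HFD group mean lay on the same side of the LFD mean at all 6 times, and 580 of the 701 called genes were among them, a count that the choice of called genes favours. Among the 24 leading genes 21 did so, and the exceptions were Mup18, Mup17 and Inhba. No gene passed the test of diet by time (0.0%), with 259 genes at an unadjusted p under 0.05. No gene passed at a single time after adjustment over genes and times (0.0%), where 3490 genes had an unadjusted p under 0.05 at any time and the median SE was 0.19. Without the pair of LFD libraries that stood apart, 2 genes passed for diet by time, Gldc, the glycine decarboxylase of mitochondria (adjusted p = 0.0117), and the clock gene Per3 (adjusted p = 0.0181), and 11 at single times. That pair was picked out by its clock genes, so the call of Per3 follows from the choice and is no support. Hamp2, a relative of the iron hormone hepcidin, had the smallest p for diet by time (0.000301, adjusted p = 1). Its HFD and LFD means were 5.26 and 2.97 log2 CPM at ZT0, 5.34 and 6.30 at ZT12, and 6.01 and 5.29 at ZT20. Slc30a1, a zinc exporter, was lower in HFD early in the cycle, by -0.53 at ZT0 and -0.74 at ZT4, and differed by 0.10 at ZT8 (diet by time, adjusted p = 1). Kcnj8, a potassium channel subunit of vessel walls, Mfsd9 and Aarsd1 also had small values, with unadjusted p-values of 0.000358, 0.00091 and 0.00177.

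The core clock kept its daily rhythm on both diets. Bmal1 (Arntl), Clock and Npas2 drive the Per, Cry and Nr1d1 genes, which repress them in turn, and Dbp, Tef and Hlf carry the rhythm to output genes. All 15 clock and output genes had a 24-h rhythm at an adjusted p under 0.05 by limma in HFD and in LFD livers. None differed in mean level between diets by limma, with 0 at an unadjusted p under 0.05 and differences from -0.77 (Npas2) to 0.40 (Nr1d1). The fitted peak came earlier in HFD for all 15 genes, by 0.17 h (Per1) to 1.88 h (Nr1d1 and Per2), with a median difference of -0.95 h. These 15 genes belong to a single loop and are not independent, and the difference in rhythm of each gene did not pass: the lowest unadjusted p was 0.0701 for Nr1d1. Nr1d1, the repressor REV-ERB alpha, peaked at 8.60 h in HFD and 10.48 h in LFD, Dbp at 12.42 h in HFD and 13.37 h in LFD, and Cry1 at 21.53 h in HFD and 22.63 h in LFD. The amplitude was lower in HFD for 10 of the 15 genes and higher for 5. The size of the shift depended on the pair of LFD libraries that stood apart. Without them all 15 peaks were still earlier in HFD, by 0.47 h to 2.47 h with a median difference of -1.44 h, and 8 of the 15 genes had an unadjusted rhythm p under 0.05. Since these libraries were picked out by their clock genes, those values are a description and no support. With any 1 library left out the median difference ranged from -1.40 h to -0.65 h.

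**Figure D5:**
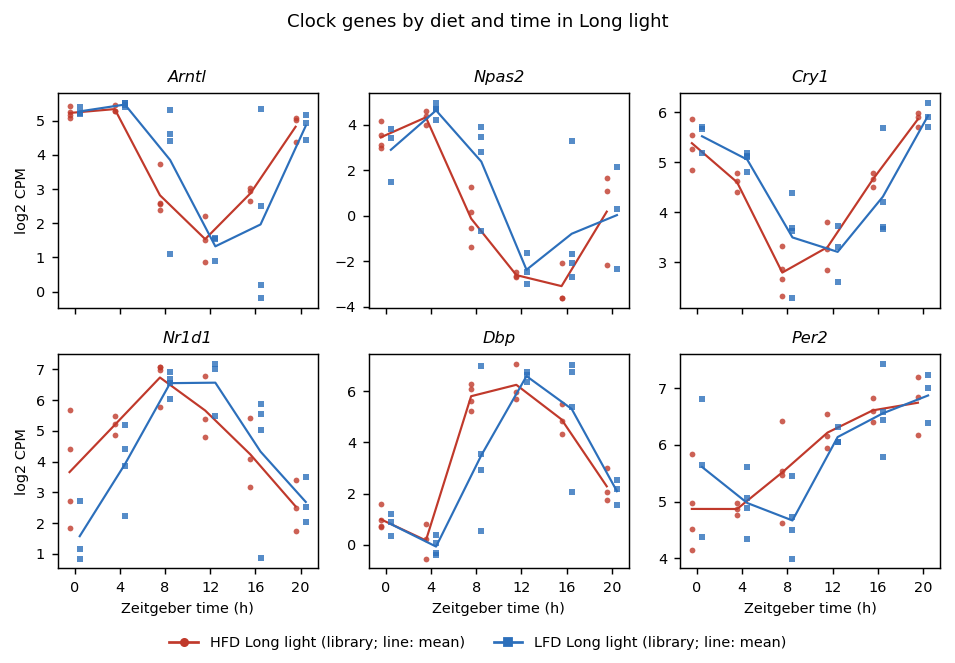
Log2 CPM of 6 clock genes in every Long light library against zeitgeber time in hours, with HFD as circles and LFD as squares and lines through the group means. The fitted peak of Dbp is at 12.42 h in HFD and 13.37 h in LFD, and the LFD libraries of Arntl and Dbp are spread widely at ZT8 and ZT16.

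Across all genes, the test of a difference in rhythm between the diets called none (0.0%), with 326 at an unadjusted p under 0.05. The smallest p-values were those of Golga5, a Golgi protein (0.000189), Hamp2 (0.000218), Tmem184c (0.00073), Dlx1as (0.00087), Trim56, a ubiquitin ligase (0.00118), and Cxcl14, a chemokine (0.00128), each with an adjusted p of 1. Golga5 differences were small, 0.22 at ZT0, -0.19 at ZT12 and 0.22 at ZT20. In Mup18 the rhythm p was 0.0014 before adjustment.

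The same contrast was set beside Equal and Short light, where HFD was compared with LFD in separate libraries of the same fit. In Equal light 987 genes passed (6.96%) and in Short light 988 (6.97%). Of the 701 genes called in Long light, 353 were also called in Equal light (50.4% of the Long and 35.8% of the Equal calls) and 352 in Short light (50.2% of the Long and 35.6% of the Short calls). For 669 of the 701 (95.4%) the sign was the same in all 3 photoperiods, against 53.5% of all genes tested, and this held for all 24 leading genes. Lepr differed by -2.02 in Long, -1.49 in Equal and -1.95 in Short light, and Fabp5 by -2.52 in Long, -2.73 in Equal and -2.89 in Short light. Adam11, at -0.81 in Long light, differed by -0.05 in Equal and -0.28 in Short light.

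No gene passed the test of a diet difference in Long light against the mean of the other photoperiods (0.0%), with 653 at an unadjusted p under 0.05 and a median SE of 0.096. Of the 701 genes, 247 were called in Long light and in neither other photoperiod. Of these, 80 had an unadjusted p under 0.05 in that test, a count that the choice of these genes favours. Parvb, a focal adhesion protein, had the smallest p (9.3e-05, adjusted p = 0.769): its diet difference was -0.26 in Long, 0.07 in Equal and 0.16 in Short light. Ces2c, a carboxylesterase with 34.7% of its windows shared with other genes, differed by 0.43 in Long, -0.21 in Equal and -0.15 in Short light (adjusted p = 0.769). Sel1l, an adaptor for degrading misfolded proteins of the endoplasmic reticulum, differed by -0.15 in Long, 0.27 in Equal and 0.14 in Short light (adjusted p = 0.977). Snrpa1, Flt1 and Cfi followed with p-values of 0.000301, 0.000393 and 0.000549. The fibrinogen gene Fga differed by -0.37 in Long, -0.04 in Equal and -0.10 in Short light, and it did not pass that test either (adjusted p = 0.977).

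The gene lists gave a like comparison of medians. Fatty acid oxidation had a median difference of 0.24 in Long, 0.30 in Equal and 0.16 in Short light, and pericentral hepatocytes 0.28 in Long, 0.26 in Equal and 0.23 in Short light. Fatty acid synthesis had a median of -0.26 in Long, -0.68 in Equal and -0.48 in Short light. The unfolded protein response was at -0.14 in Long, 0.28 in Equal and 0.15 in Short light, and macrophages and Kupffer cells at 0.06 in Long, 0.20 in Equal and 0.33 in Short light. These medians are descriptions, and the differences between the photoperiods were tested gene by gene only.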

How the data were processed

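Per the labels' protocols, poly-A RNA of whole liver was sequenced from stranded libraries as 52-base paired reads. The submitters' processing notes name STAR, featureCounts, Subread 1.6.2 and mm10 (GRCm38). The authors deposited 1 table of log2 CPM for 15398 genes, and the sources used here do not state its normalization. The lowest value, -3.6124, is the same in every library and equals a prior of 2.0 reads scaled to depth. With it removed, values came out as whole reads within 0.05 read (100.0% of values under 2000 reads), which gave the depth. A fold on this scale understates changes of low genes.

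The filter asked for 1 CPM or more in 3 or more libraries (14184 genes). Limma 3.58.1 (R 4.3.3) with a mean-variance trend was fitted to 36 group means, with the 6 times weighted equally and Benjamini-Hochberg adjustment over all genes tested. F tests covered diet by time and a 24-h cosine and sine. The main fit used the log2 values as deposited. Limma-voom on the recovered reads was run as an alternative, and no other model of the reads was fitted. Tested on simulated data for the comparison of the diets in Long light, the fit recovered 46%, 70%, 98% and 98% of 50 genes each changed by 0.25, 0.5, 1 and 2 on the log2 scale, over 14184 genes, with 7 false calls among 163. The simulated counts held no RNA of other tissues and no libraries that stood apart, so these rates need not hold in the real data.

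Replicate numbers are given by order of deposit, as names. No pair of libraries of a group was a repeat (51 pairs, chi-square per degree of freedom at least 23.0). Named genes are the 12 largest increases and decreases among calls that averaged log2 CPM 2 or more, up to 4 called members per list, 15 clock genes and the 6 smallest p-values of each other test. Gene models without a symbol were passed over, and some genes are not reported here. The groups, lists and members were chosen with earlier results of these data known. Positions are from GENCODE mouse release 21 on GRCm38 (15379 genes matched).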

Additional observations from a re-analysis of the deposited data

Results flagged for a closer look

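Within groups of 4 libraries, 4 values stood apart from the others of their group by Dixon's test, among 135 tests of 27 measures in 5 groups, where chance gives about 1 in 20. Inhba was at 5.20 log2 CPM in LFD replicate 2 of ZT16, against 4.25 to 4.30 in the other libraries of that group. The mean of the pancreas acinar markers was 6.92 log2 CPM in LFD replicate 4 of ZT4, against -2.02 to -0.951 in the others. The same mean was -1.59 in HFD replicate 2 of ZT8, against -2.66 to -2.54 in the others. The mean of the skeletal muscle markers was 2.18 in LFD replicate 3 of ZT8, against -2.44 to -2.29 in the others.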

How the results depend on the processing

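The count of 701 genes stayed between 650 and 809 with only Long light libraries, no filter, a filter of 20 libraries, log2(CPM + 1), limma-voom, equal library medians or the library number as covariate, and between 511 and 846 when 1 library was left out. It was 130 without the libraries rich in pancreas or muscle RNA and 2242 with library quality weights, where 55.35% of calls were higher in HFD, against 66.3% here. Library quality weights also gave 63 calls for diet by time, 1330 at single times and 7 for rhythm, against 0 for each, and the cause was not tested. The count at single times was 1 with only Long light libraries and 1 with log2(CPM + 1). Without the pair of LFD libraries whose clock genes stood apart, chosen after seeing the data, 660 genes passed, 2 for diet by time and 11 at single times. The last count ranged from 0 to 10 when 1 library was left out: 10 without LFD replicate 1 of ZT8 or LFD replicate 2 of ZT0, 3 without LFD replicate 1 of ZT0, 2 without HFD replicate 2 of ZT20 and 1 without LFD replicate 2 of ZT12. No named gene reversed, and 415 of the 701 genes passed in each of the 41 fits without 1 library. No paired analysis was possible because the replicate numbers come from the order of deposit. Depth limits genes near the floor such as Cyp2b13.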

Other observations

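Part of the 701 genes kept their call in every fit that left out 1 library and also without the libraries rich in pancreas or muscle RNA. The genes below were chosen from these after their values were seen. Several encode enzymes of mitochondria and peroxisomes. Agxt2, a mitochondrial aminotransferase, had 7.31, 7.81 and 8.13 log2 CPM (lowest, median, highest) in HFD livers and 6.96, 7.28 and 7.65 in LFD livers (log2 difference 0.46, SE 0.06, adjusted p = 2.71e-07). Gstk1, a glutathione transferase of mitochondria and peroxisomes, averaged 6.89 ± 0.23 in HFD and 6.44 ± 0.21 in LFD (SD, adjusted p = 1.27e-06). Hsd17b10, a mitochondrial dehydrogenase of isoleucine breakdown, averaged 7.36 ± 0.32 in HFD and 6.87 ± 0.25 in LFD (adjusted p = 5.95e-06), and Suox, sulfite oxidase, 7.07 ± 0.21 in HFD and 6.64 ± 0.28 in LFD (adjusted p = 1.45e-05). All HFD libraries lay above all LFD libraries at 4 times for Agxt2, 3 for Gstk1, 3 for Hsd17b10 and 5 for Suox. The share of all genes with such a separation was not counted for these numbers of times, so the counts are descriptions.

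Aldh1a1, which makes retinoic acid from retinaldehyde, averaged 10.34 ± 0.39 log2 CPM in HFD and 9.59 ± 0.41 in LFD (SD, adjusted p = 4.5e-06). Gm2a, the lysosomal activator protein for ganglioside breakdown, was lower in HFD, at 6.37 ± 0.30 in HFD and 6.93 ± 0.29 in LFD (adjusted p = 5.95e-06). Mtnr1a, a melatonin receptor, was expressed at a low level and was higher in HFD, with 0.34, 1.72 and 2.27 log2 CPM (lowest, median, highest) in HFD livers and -0.47, 0.73 and 1.71 in LFD livers (log2 difference 1.02, SE 0.15, adjusted p = 4.28e-06). All HFD libraries lay above all LFD libraries at 5 of the 6 times for Mtnr1a, a count without a share over all genes beside it. Its diet difference was 0.63 in Equal light (adjusted p = 0.00572) and 0.86 in Short light (adjusted p = 7.59e-05).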
